A study of Homo sapiens with 6 samples.

Results

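ADAM15, ADAM12 and MMP24 are genes for zinc metalloproteases of the cell surface, and they were taken by gene name from a deposited table of expression values of the CAL-27 cell line, which was established from a squamous cell carcinoma of the tongue. The 3 genes were 3 of the 402 genes of that table. Libraries of the NC genotype (n = 3) were set against libraries of the shYTHDC2 genotype (n = 3), in which a short hairpin RNA targets YTHDC2, an RNA helicase that reads the m6A mark. The labels do not say what the NC construct holds, which hairpin was used or whether the knockdown line is 1 clone. They call the replicates biological, without saying whether these were separate cultures. The study's question was what loss of YTHDC2 does to gene expression in this cell line.

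The authors had marked all 402 genes as up and significant in the knockdown, with a smallest fold of 2.00 and a largest q of 0.0494 in the authors' deposited table. The 3 genes were chosen for this work from those same values, so the differences between groups below are a description and carry no test. Genes that fell, or that differed less, were not analysed here, and neither was YTHDC2, so its level could not be used to check which libraries carry the knockdown. Levels are in FPKM (fragments scaled to transcript length and library total), with the depth of each library unknown. Within a group the correlation of libraries across the 187 genes that reached a group mean of 1 FPKM was 0.984 to 0.989. Of the markers looked for, 0 of 10 for squamous keratinocytes, 0 of 8 for fibroblasts and 0 of 8 for neural cells were among the listed genes, so the labelled cell type could not be checked against these markers. Genes of squamous and mesenchymal cells outside those short lists were in the table, and some are named here after their values were seen. SPRR2D (9.56-fold) had means of 0.187 FPKM in NC and 1.79 FPKM in shYTHDC2, and PERP (2.10-fold) 33.2 and 69.5 FPKM. VIM (4.93-fold, 0.186 and 0.918 FPKM) and ZEB1 (2.09-fold, 0.377 and 0.787 FPKM) stayed below 1 FPKM in both groups. The part of these genes in the results below was not tested. In bulk RNA, a change in the share of cells that express a gene and a change in RNA per cell cannot be told apart.

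Proteases of the ADAM family (a disintegrin and metalloprotease) and the membrane-type matrix metalloproteases are made as inactive precursors with a prodomain, and proprotein convertases such as furin remove it. At the cell surface they cut the outer part of other membrane proteins (growth factor precursors, adhesion molecules, receptors) or the matrix nearby, a step called shedding where it frees a soluble fragment. TIMP proteins inhibit many of them. In squamous carcinoma such proteases are known for releasing ligands of the EGF receptor and for remodelling cell contacts.

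The promoters of the 3 genes are shown because the genes were listed as higher together, and these windows let their regulatory sequence be compared. Each run, from RefSeq on GRCh38.p14, reads 5′ to 3′ on the gene's own strand from 250 bases before to 50 bases after the annotated start, and capitals mark the GC box GGGCGG, the core of the site that SP1-type factors bind, on either strand. All 3 genes matched by symbol. The windows lie at chr1:155051066-155051365 (plus strand) for ADAM15, chr10:126388428-126388727 (minus strand) for ADAM12 and chr20:35226440-35226739 (plus strand) for MMP24.
ADAM15: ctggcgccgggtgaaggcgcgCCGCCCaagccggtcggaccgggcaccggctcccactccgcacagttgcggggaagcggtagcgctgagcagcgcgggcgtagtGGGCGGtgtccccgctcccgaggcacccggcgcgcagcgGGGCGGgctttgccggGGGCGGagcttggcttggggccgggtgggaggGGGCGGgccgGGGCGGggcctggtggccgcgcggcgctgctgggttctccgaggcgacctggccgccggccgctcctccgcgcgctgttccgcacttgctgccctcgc
ADAM12: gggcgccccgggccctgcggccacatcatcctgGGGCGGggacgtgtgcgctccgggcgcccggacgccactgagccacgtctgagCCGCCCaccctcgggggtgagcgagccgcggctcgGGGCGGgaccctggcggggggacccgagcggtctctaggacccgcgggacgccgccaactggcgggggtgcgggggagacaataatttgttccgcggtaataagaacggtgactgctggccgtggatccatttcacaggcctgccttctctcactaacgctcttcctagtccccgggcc
MMP24: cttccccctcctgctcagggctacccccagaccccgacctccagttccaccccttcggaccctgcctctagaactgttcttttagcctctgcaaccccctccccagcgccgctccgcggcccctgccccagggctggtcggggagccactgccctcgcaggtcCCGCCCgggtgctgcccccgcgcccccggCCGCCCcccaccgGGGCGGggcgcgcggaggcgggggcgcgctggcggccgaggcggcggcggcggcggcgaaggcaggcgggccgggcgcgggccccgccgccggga

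All 3 windows were rich in G and C, at 79.3% for ADAM15, 71.0% for ADAM12 and 80.0% for MMP24, where the median of 27305 promoters of the same length was 58.3%. They held 44, 33 and 37 CG dinucleotides in that order, against a median of 14. The GC box matched 6 times in ADAM15 and 3 times each in ADAM12 and MMP24. At least 1 match stood in 44.6% of all promoters, at least 3 in 15.9% and at least 6 in 2.91%. Among the 4754 promoters with a G and C content of 71.0% or more, 93.9% held a match, so a GC box is common in windows of this composition. The shares with at least 3 and at least 6 matches were not computed for those promoters, so nothing is read from these counts. The AP-1 letters TGANTCA, the TATA box letters TATAAA and the E-box CACGTG, each read on both strands, had 0 matches in all 3 windows, where 7.76%, 12% and 7.43% of all promoters held them. A match is a string of letters and not a bound site, and the lack of one says nothing of the factor. The ADAM15 window starts from a RefSeq start 750 bases downstream of the outermost start in GENCODE release 29, while the starts of ADAM12 and MMP24 differ by at most 36 bases between the annotations.

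ADAM15 (ENSG00000143537), also known as metargidin, carries an integrin-binding disintegrin domain and a cytoplasmic tail that binds SH3 domain proteins. It was the most abundant of the 3. Its level was 13.3, 13.3 and 14.8 FPKM in NC replicates 1, 2 and 3, and 33.5, 32.8 and 33.8 FPKM in shYTHDC2 replicates 1, 2 and 3. The groups lay far apart, with the lowest shYTHDC2 library 2.21 times the highest NC library, and NC replicate 3 stood above the other two of its group. The means were 13.8 ± 0.89 and 33.4 ± 0.54 FPKM (means ± SD here and below, n = 3 per group), a 2.42-fold difference. The 9 ratios of a shYTHDC2 to an NC library ran from 2.21 to 2.55, the narrowest range of the 3 genes.

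ADAM12 (ENSG00000148848), also known as meltrin alpha, exists as a long membrane-anchored form and a short secreted form made by alternative splicing, and it has been linked to the release of HB-EGF and to cleavage of insulin-like growth factor binding proteins. Its level was 2.57, 2.78 and 2.76 FPKM in the NC libraries and 7.92, 6.44 and 7.48 FPKM in the shYTHDC2 libraries. The NC libraries were nearly equal, and shYTHDC2 replicate 2 was the lowest of its group yet 2.31 times the highest NC library. The means were 2.70 ± 0.12 and 7.28 ± 0.76 FPKM, a 2.69-fold difference, with the 9 ratios between 2.31 and 3.09.

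MMP24 (ENSG00000125966) encodes MT5-MMP, a membrane-type matrix metalloprotease best known from neurons, where it cuts N-cadherin. It stood at a low level, 0.190, 0.156 and 0.138 FPKM in NC replicates 1, 2 and 3, and 0.574, 0.591 and 0.434 FPKM in shYTHDC2. The groups did not overlap, and shYTHDC2 replicate 3 was the lowest of its group, 2.28 times the highest NC library. The means were 0.161 ± 0.026 and 0.533 ± 0.086 FPKM, a 3.30-fold difference, and the 9 ratios spread from 2.28 to 4.28. It was the highest fold of the 3 genes at the lowest level, and values this low rest on few fragments of an unknown total. MMP24 was also the 1 gene of the 3 under a mean of 1 FPKM in both groups.

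**Figure D1:**
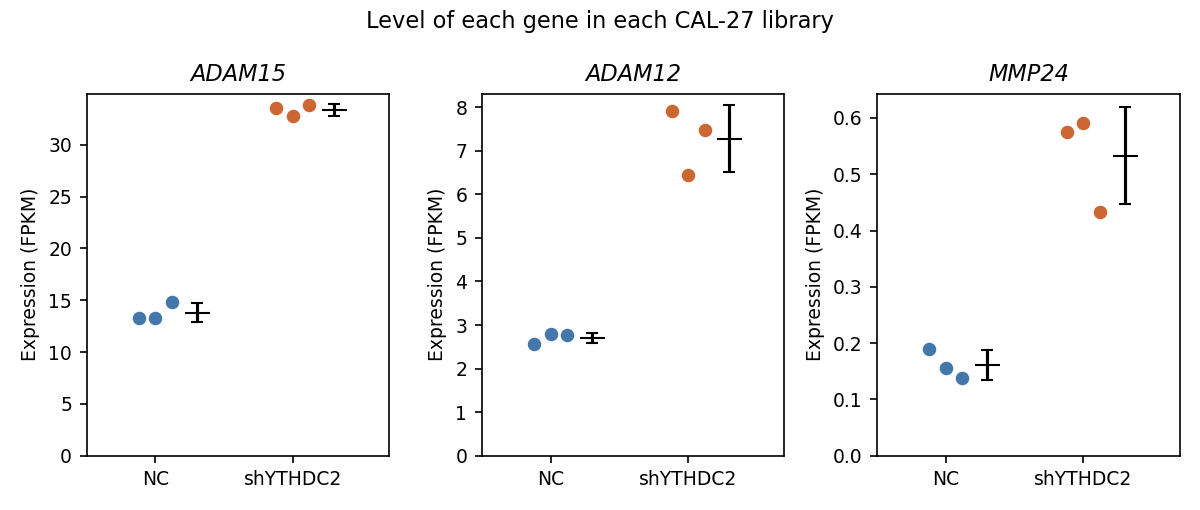
Expression in FPKM (each vertical axis from 0, with its own range) of ADAM15, ADAM12 and MMP24 in the NC (blue) and shYTHDC2 (orange) libraries, drawn left to right in the order of replicates 1 to 3, with the mean and SD in black. In each panel all 3 shYTHDC2 libraries lie above all 3 NC libraries, and the panels cover levels from 0.138 FPKM for MMP24 to 33.8 FPKM for ADAM15.

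The groups did not overlap for 3 of 3 genes, where the same held for 90.5% of all 402 listed genes. The authors' call of higher and significant held for 3 of 3, and for 100% of the listed genes, since it defines the table. Nothing is read from either count. In the authors' deposited table the q was 3.17e-119 for ADAM15, 1.26e-51 for ADAM12 and 0.000456 for MMP24, values that put the genes in the table. On the log2(FPKM + 1) scale, which understates low genes, the difference between groups was 1.22 (SE 0.051) for ADAM15, 1.16 (SE 0.083) for ADAM12 and 0.40 (SE 0.051) for MMP24. The median was 0.53 over all listed genes, many of them low. It was 0.88 over the 187 genes that reached a group mean of 1 FPKM, MMP24 not among them. The order of the genes by difference thus turned with the scale, since MMP24 came first by fold and last by this difference. Without the added 1, the log2 fold in the authors' deposited table was 1.27, 1.43 and 1.72 in the same order.

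**Figure D2:**
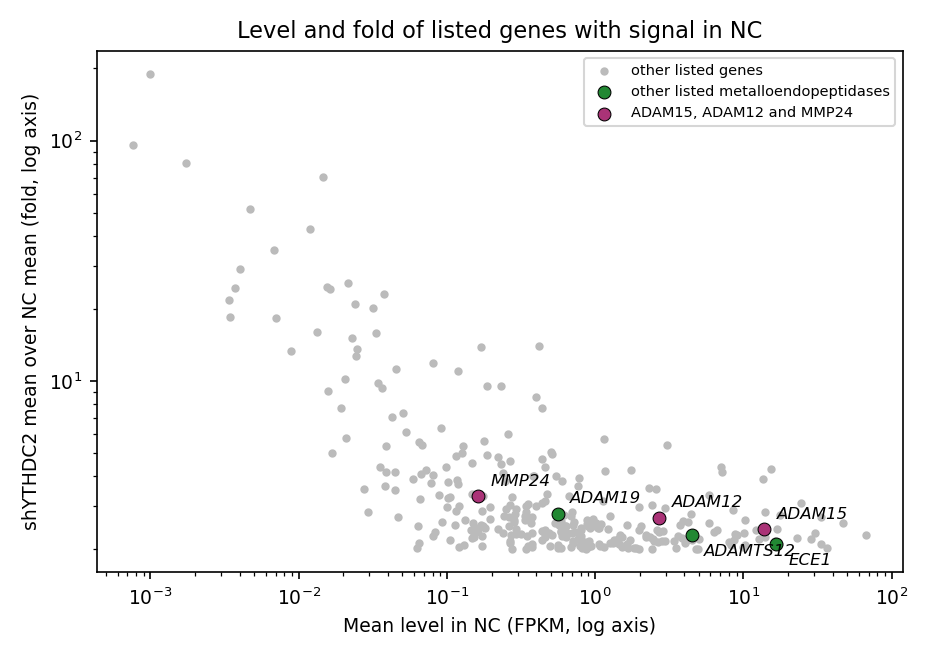
Mean NC level in FPKM (horizontal, log axis) against the ratio of the shYTHDC2 mean to the NC mean (vertical, log axis) for the 318 listed genes with signal in NC, with ADAM15, ADAM12 and MMP24 in purple, 3 other listed metalloendopeptidases in green and the rest in grey. ADAM15 at 2.42-fold and ADAM12 at 2.69-fold lie near the median of 2.57-fold, MMP24 at 3.30-fold lies above it, and the highest folds belong to genes with the lowest NC levels.

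Among the 318 listed genes with signal in NC, the fold ranked 190 for ADAM15, 142 for ADAM12 and 101 for MMP24, counted from the highest. The median fold was 2.57. Listed genes at 0 in every NC library have no such ratio and were left out of these ranks and this median. ADAM15 was therefore below the middle of those 318 genes by fold. By level it was near the top of all listed genes, between ranks 15 and 18 of 402 in every library. ADAM12 lay between ranks 54 and 63, and MMP24 between 222 and 257. The SD was 6.47% of the mean in NC and 1.63% in shYTHDC2 for ADAM15, 4.39% and 10.5% for ADAM12, and 16.3% and 16.2% for MMP24. The median over listed genes that reached 1 FPKM, leaving out a group listed at 0, was 13.0% in NC and 9.16% in shYTHDC2. MMP24 was not among those genes, and no median was computed for genes of its level.

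The order ADAM15, ADAM12, MMP24 by level held in all 6 libraries, and no neighbours in it came near each other. ADAM15 was 5.11 ± 0.31 times ADAM12 in NC and 4.61 ± 0.44 times in shYTHDC2. ADAM12 was 17.1 ± 3.3 times MMP24 in NC and 14.0 ± 3.2 times in shYTHDC2. The libraries of the groups overlapped in both ratios. The summed level of the 3 genes was 16.7 ± 0.93 FPKM in NC and 41.2 ± 1.2 FPKM in shYTHDC2, and ADAM15 made up 81.9% to 83.6% of it in the NC libraries and 79.8% to 82.3% in the shYTHDC2 libraries. The make-up of the sum thus overlapped between the groups while the sum itself did not.

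The transcripts that the authors' table names for each gene bear on what the values count. For ADAM12 the row names 5 transcripts, out of 7 in GENCODE release 29. Among them is ENST00000368676, of 3313 bases with 2214 coding bases, whose product is the short secreted form. The transcript ENST00000368679, of 7938 bases with 2727 coding bases, which encodes the long membrane-anchored form, is not named. A further coding transcript named there, ENST00000448723, is an incomplete model of 1145 bases in release 29. The table uses the transcript type "protein_coding_CDS_not_defined", which release 29 does not have, so the authors' annotation was another release and the extent of that model in it is not given in the sources used here. The table does not say how much each transcript contributed, so how much of the ADAM12 level stands for a membrane-anchored protease cannot be read from it.

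For ADAM15 the row names 26 transcripts, all in release 29, which has 32, and 8 of the 26 are protein-coding there. The coding lengths of these 8 run from 1899 to 2589 bases. ADAM15 is known to splice short exons of its cytoplasmic tail alternatively. MMP24 has 1 transcript in both, ENST00000246186, with 4414 bases and 1935 coding bases. FPKM depends on the transcript lengths used, so the levels of ADAM12 and ADAM15 relative to one another carry that uncertainty, while the fold of a gene carries it only as far as its transcripts shift between groups.

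In release 29 ADAM15 spans 155050566 to 155062775 on chromosome 1, ADAM12 126012381 to 126388455 on chromosome 10 and MMP24 35226654 to 35277000 on chromosome 20. ADAM15 shares 365 bases with DCST1 on the same strand. ADAM12 holds a ribosomal RNA pseudogene and a processed pseudogene, RNA5SP328 and SAR1AP2. MMP24 lies for its whole length, 50347 bases, inside the span of the opposite-strand gene MMP24OS. The libraries mark strand, per the labels' protocols, but the strand setting of the counting is not given in the sources used here. The low MMP24 level is therefore uncertain in its assignment. MMP24OS and DCST1 were not among the listed genes.

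The deposited annotation gives the 3 genes 9 Gene Ontology terms in common, from 39 for ADAM15, 16 for ADAM12 and 25 for MMP24. Metalloendopeptidase activity was given to 6 of the 245 listed genes whose terms were used here (2.45%), plasma membrane to 75 (30.6%) and cell adhesion to 18 (7.35%). The annotation places ADAM15 and ADAM12, with ADAM19, among proteins bound by SH3PXD2A, an adaptor of invadopodia (protrusions that degrade matrix), and gives ADAM15 also E-cadherin degradation. It gives MMP24 the activation of membrane-type MMPs by furin.

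The other listed genes of metalloendopeptidases were ADAM19, ADAMTS12 and ECE1. ADAM19, or meltrin beta, a close relative of ADAM12, stood at 0.610, 0.760 and 0.311 FPKM in NC and 1.27, 1.97 and 1.47 FPKM in shYTHDC2. Its groups did not overlap, and its SD was wide at 40.8% of the mean in NC, with a 2.80-fold difference between the means. ADAMTS12, a secreted protease of the matrix, stood at 4.51, 4.60 and 4.32 FPKM in NC and 10.3, 10.0 and 10.3 FPKM in shYTHDC2. It was 2.28-fold higher with the libraries of each group close together. ECE1, the membrane metalloprotease that makes endothelin, was 2.10-fold higher at 35.0 ± 1.4 FPKM against 16.7 ± 0.96 FPKM, so that ADAM15 and ECE1 were the most abundant of the 6. ECE1 was found by its annotation and is named after its values were seen. The median fold of the 6 genes was 2.56, against 2.57 for the listed genes with signal in NC.

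Genes around these proteases were looked up in 13 lists with 206 symbols, and 7 symbols in 5 lists were in the table, all 7 called higher by the authors (100% of the listed genes are) and 7 of 7 with separate groups (90.5% of the listed genes have them). Nothing is read from these shares. ADAM proteases other than the members had 1 of 19, ADAM19, and ADAMTS and astacin proteases had 1 of 25, ADAMTS12. Matrix metalloproteases other than MMP24 had 0 of 22, and inhibitors such as the TIMPs and RECK 0 of 8. Convertases and carriers of sheddases had 0 of 12, adaptors of the ADAM12 and ADAM15 tails 0 of 17, and integrins and syndecans 0 of 27. A symbol not in the table may have fallen, stayed level or been too low, and was not analysed here.

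Membrane proteins that sheddases are known to release were listed too. HBEGF, the EGF receptor ligand that ADAM12 is known to shed in mouse heart, was 1 of 11 such ligands, at 18.0, 17.1 and 15.7 FPKM in NC and 42.2, 41.1 and 39.2 FPKM in shYTHDC2. Its 2.41-fold difference stood beside 2.42 for ADAM15 and 2.69 for ADAM12. The median over listed genes with signal in NC was 2.57 and the smallest authors' fold 2.00, so nothing is read from this closeness. Of 28 other shed membrane proteins 3 were in the table. L1CAM, an adhesion molecule of nerve cells and invasive carcinomas, stood at 2.20, 2.23 and 2.53 FPKM in NC and 8.76, 8.90 and 7.23 FPKM in shYTHDC2. This was a 3.58-fold difference, the highest of the 7 genes. The endothelial cadherin CDH5 was 2.05-fold higher and the neurotrophin receptor NGFR 2.35-fold, the latter with NC replicate 1 at 1.07 FPKM close to shYTHDC2 replicate 2 at 1.31 FPKM. Fibronectin, FN1, a matrix protein cut by many metalloproteases, was 1 of 17 matrix and IGF binding protein substrates and 2.07-fold higher. RNA levels give no measure of shedding.

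**Figure D3:**
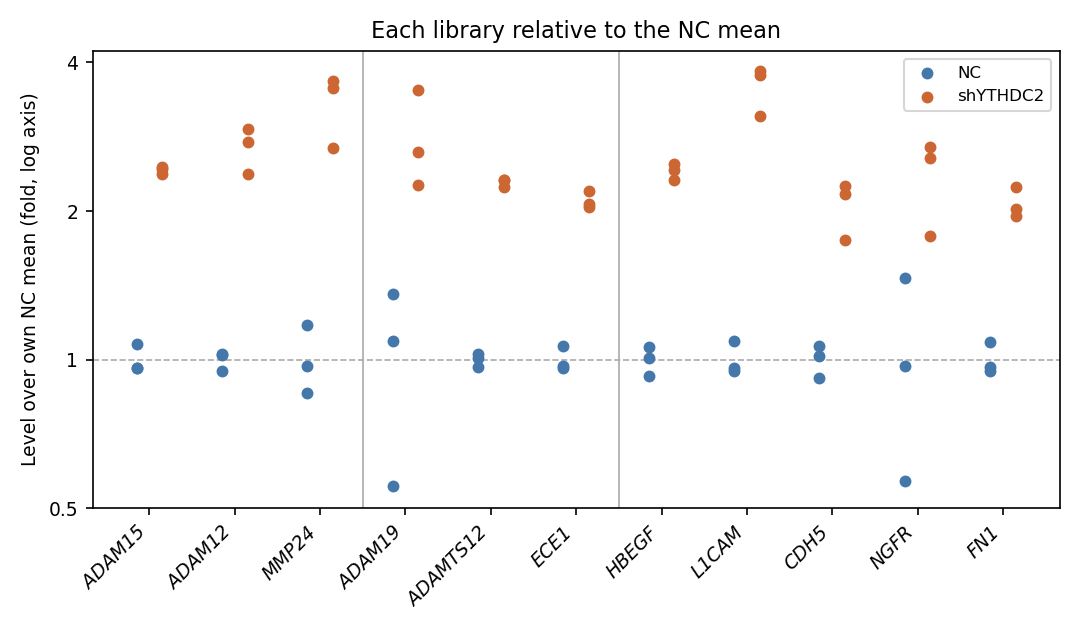
Level in each library divided by the gene's own NC mean (vertical, log axis), with NC in blue and shYTHDC2 in orange. The 3 genes are at left, 3 other listed metalloendopeptidases in the middle and 5 listed genes of shed membrane or matrix proteins at right. The groups are separate for every gene shown, with the widest NC spread for ADAM19 and NGFR, and means from 2.05-fold for CDH5 to 3.58-fold for L1CAM.

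The listed genes with the most similar profile were found by the root mean square difference over the 6 libraries of log2(FPKM + 1), each gene set to its own NC mean. For ADAM15, of 163 protein-coding genes with at least 1 FPKM in shYTHDC2, the 3 nearest included the cyclin-dependent kinase CDK14 (0.054) and MESD, a chaperone of LDL receptor-family proteins (0.055), against a median of 0.299. CDK14 went from 0.776 ± 0.053 to 3.05 ± 0.027 FPKM. For ADAM12 they were MESD (0.068), MYADM, a membrane protein (0.073), and the chemokine CXCL1 (0.080), against a median of 0.277. ADAM15 and ADAM12 lay 0.092 from each other. For MMP24, of 279 protein-coding genes at any level, they were the sodium-proton exchanger SLC9A2 (0.058), the collagen hydroxylase family member P3H3 (0.060) and the homeobox gene DRGX (0.065), against a median of 0.239. MMP24 lay 0.585 from ADAM15 and 0.548 from ADAM12, and on this scale low genes are near each other whatever their fold (SLC9A2 2.00-fold, P3H3 3.72-fold). The distances describe 6 libraries in 2 groups and carry no test.

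How the 3 differences hang on the scale of the values is drawn for each setting. The libraries were also scaled to one another on 182 listed genes, those with signal in every library and a group mean of at least 1 FPKM, MMP24 not among them. Since all were selected as higher, this takes the typical gene of that set as equal between groups. By construction it lowers shYTHDC2 against NC by 1.29 in log2 FPKM, without the added 1, for every gene. The differences that follow are of log2(FPKM + 1), where the drop is smaller for low genes (for MMP24 from 0.40 to 0.0982). After this scaling the difference of ADAM15 was -0.014 (SE 0.062), that of ADAM12 0.11 (SE 0.081) and that of MMP24 0.0982 (SE 0.041). The groups of 0 of the 3 genes were then separate with shYTHDC2 higher, against 31.3% of all 402 listed genes, and 101 of the 187 genes with a group mean of at least 1 FPKM lay below 0. These values set each gene against the genes that fixed the scale and do not bear on whether it was higher. ADAM15 lay within 1 SE of 0, close to the median of -0.015 for those 187 genes.

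**Figure D4:**
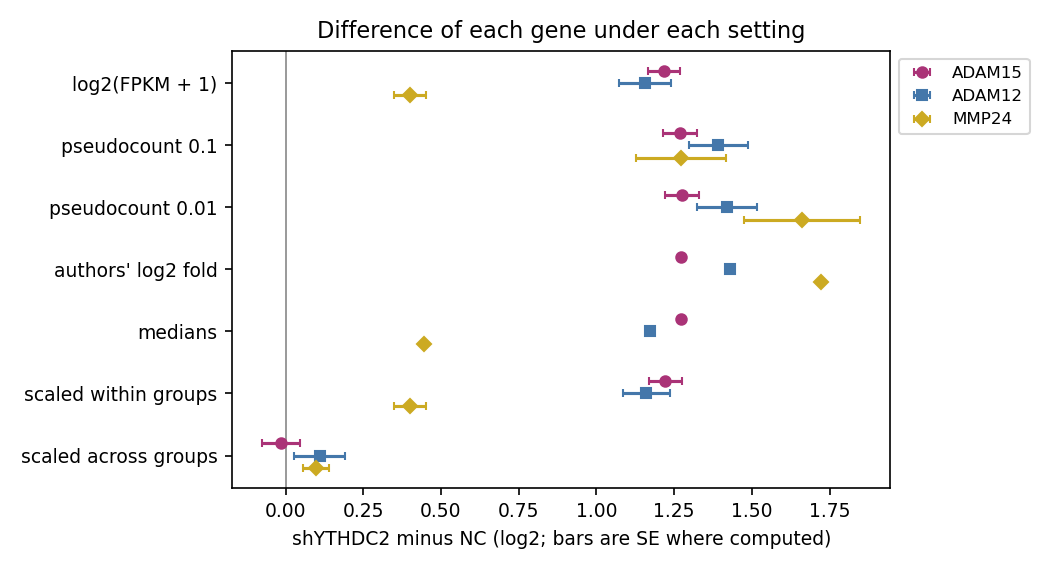
Difference between shYTHDC2 and NC on a log2 scale (horizontal) for ADAM15, ADAM12 and MMP24 under 7 settings of pseudocount, average and scaling (vertical), with SE bars where computed. ADAM15 stays between 1.22 and 1.27 except after scaling across groups (-0.014), while MMP24 moves from 0.40 with a pseudocount of 1 to 1.66 with 0.01.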

How the data were processed

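Poly(A) RNA of 6 CAL-27 libraries, in groups taken from the sample titles, was sequenced as strand-marked paired ends, per the labels' protocols. The build GRCh38 and the tools edgeR, StringTie, HISAT2 and fastp stand in the submitters' processing notes, with no version or role. Per the file headers, the authors deposited FPKM values of each library, a fold (a ratio), its log2, and p-values and q-values of a test not named. The authors' fold equals the ratio of group mean FPKM for the 3 genes. Since FPKM is relative to the library total, abundant genes that change shift every other value, and without counts no interval was computed.

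Means, SDs, differences of log2(FPKM + 1) with SE, and profile distances were computed with Python 3.11.15, pandas 2.3.3 and numpy 2.4.6. Scaling across groups and the separation of groups were checked on simulated data in which only part of the genes were raised. Those data held no low levels and were not selected as higher throughout, so they do not check the scaled values here or MMP24. The planned design gave no test, because the genes were chosen on this contrast, and an exact permutation test of 3 against 3 cannot go below 0.1. Genes and lists were chosen with earlier results of these data known. The genes named are the members, the listed genes of the fixed lists, and the 3 nearest profiles of each member, of protein-coding genes with a symbol, of which 1 is not reported here. No library was left out, and no pair in a group shared identical values (0 genes). Promoters come from RefSeq, and transcripts and positions from GENCODE release 29. Some Gene Ontology entries were not used here.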

Additional observations from a re-analysis of the deposited data

How the results depend on the processing

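The difference of each gene on the log2(FPKM + 1) scale was recomputed with other choices. With pseudocounts of 0.1 and 0.01 it was 1.39 and 1.42 for ADAM12 and 1.27 and 1.66 for MMP24, and the authors' log2 fold was 1.43 and 1.72, because a smaller added value weighs down low levels less. Scaling across groups on genes all selected as higher lowers every gene by construction. It gave -0.014 for ADAM15 (SE 0.062, within 1 SE of 0), 0.11 for ADAM12 and 0.0982 for MMP24, and 0 of the 3 genes kept separate groups, against 31.3% of all listed genes. It put 101 of 187 genes below 0 and does not bear on direction. Leaving out each library in turn gave 1.19 to 1.27 for ADAM15, 1.10 to 1.23 for ADAM12 and 0.37 to 0.45 for MMP24, with 3 separate genes each time. Medians and scaling within groups moved no difference by more than the spread between replicates. The 7 listed genes of the fixed lists stayed 7 with a minimum of 1 FPKM and with separate groups required. A replicate block on the library number left the differences at 1.22, 1.16 and 0.40, with SEs of 0.041, 0.10 and 0.037. The deviations of libraries that share a number correlated at 0.059, 0.15 and 0.073, and all 6 libraries correlated best with their own number. The 6 matches are read from the same few correlations, so they are not independent, and the correlations are small. The labels do not say whether libraries that share a number were handled together, and this was not tested. Depth is unknown, which limits MMP24 most.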
